A study of Mus musculus with 2 samples.

Results

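The genes Msx1, Msx2, Id1, Id2, Id3, Id4, Bambi, Smad6 and Smad7 are transcribed in many tissues when cells receive a bone morphogenetic protein (BMP) signal. They were taken by name from 2 deposited matrices of unique molecular identifiers (UMIs, molecule tags that are counted once each), and all 9 were present among the 56982 features of each matrix. The matrices come from droplet-based single-cell RNA sequencing of hindlimbs of FVB mouse embryos at E11.5, the stage of the paddle-shaped limb bud. Both embryos carried a pair of fluorescent reporters at the H11 locus, mCherry under the ZRS, which is the enhancer that switches on Shh in limb buds, and eGFP under its variant ZRS404G>A. The first library, dual-enSERT-1, carried the genotype H11 ZRS-mCherry/ZRS404G>A-eGFP. The genotype of the second, dual-enSERT-2, holds the same pair with B written at either end and SI between the reporters, which the labels do not spell out. Each group was 1 library, read from the series' design text as 1 embryo, and no library without the transgenes was analysed here. Construct, embryo and preparation therefore cannot be told apart between the libraries, no test was run, and all intervals cover counting error only.

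BMP ligands bind paired type I and type II serine/threonine kinase receptors, which phosphorylate SMAD1, SMAD5 and SMAD9, and these enter the nucleus with SMAD4. In the limb bud, BMP signalling shapes the apical ectodermal ridge, the anterior to posterior pattern and, later, the death of interdigital cells, and mesenchymal Gremlin 1 restrains it. Msx1 and Msx2 encode homeobox transcription repressors, the Id genes encode helix-loop-helix proteins without a DNA-binding region that hold back other helix-loop-helix factors, Bambi encodes a receptor-like protein without a kinase, and Smad6 and Smad7 encode inhibitory SMADs that bind the receptors.

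Id2, Id3 and Msx2 carry, upstream of their start, the bipartite element known from such genes, in which SMAD1 or SMAD5 binds the letters GGCGCC and SMAD4 the letters GTCT after 5 bases of any kind. These are shown because they are the letters by which the nuclear SMADs are known to reach such genes, with both parts of the element in capitals, 5′ to 3′, in the strand that carries the element, from GRCm39 (mm39).
Id2, chr12:25148846-25148874, minus strand: cgcgcctGGCGCCagagaGTCTgctccgg
Id3, chr4:135867844-135867872, plus strand: ccaccctGGCGCCaggctGTCTggggctg
Msx2, chr13:53630400-53630428, minus strand: ggcccttGGCGCCcatttGTCTgcccgct
Id1, chr2:152577060-152577089, plus strand, GGCGCC part alone: gaccgcccgcgcGGCGCCagcctgacagcc

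Distances are counted from the start of the transcript that Ensembl marks as canonical. The Id2 element lies 1585 bases before it, the Id3 element 2957 bases and the Msx2 element 3311 bases. The Id1 site, 1093 bases upstream of that start, holds GGCGCC without GTCT at that spacing, and it lies inside the annotated span of Id1, which begins further upstream. Searched on both strands in the 5000 bases before the start, the whole element was found at 3 of 9 genes and at 48 of 21767 protein-coding genes (0.221%). In the nearest 250 bases it was found at 0 of 9 genes and at 12 of 21770. GGCGCC alone was found within 5000 bases of 8 of 9 genes, Smad7 being the exception, and of 26.3% of protein-coding genes. GTCTG, a longer form of the SMAD4 part searched by itself, occurred within 5000 bases of 21766 of 21767 genes. A match is a run of letters and not a measured site. The element was modelled on genes of this kind and the 5000-base window was chosen after the data had been seen, so the count is a description.

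Depth and cell identity bear on all values below. The matrices held 20508 barcodes and 298653282 UMIs in dual-enSERT-1, and 8885 barcodes and 184301053 UMIs in dual-enSERT-2, and 29 barcodes occurred in both. After filtering, 16039 cells with a median of 13997 UMIs and 6472 cells with a median of 25841.5 UMIs remained. The sample records give 10000 cells loaded for each library, fewer than were kept in dual-enSERT-1, so these are counts of barcodes that passed the filters. Clusters were named from marker genes, and the clustering left out the 9 genes and Bmp4. Mesenchyme-like cells numbered 14554 and 4418, ectoderm-like 430 and 181, endothelial-like 202 and 104, muscle-like 547 and 76, erythroid-like 245 and 1637, and macrophage-like 61 and 56 in dual-enSERT-1 and dual-enSERT-2. The hindlimb genes Tbx4 and Pitx1 stood at 187 and 347 CPM (UMIs of a gene per 1000000 UMIs of its cell group) in mesenchyme-like cells of dual-enSERT-1 and at 127 and 333 CPM in those of dual-enSERT-2, while the forelimb gene Tbx5 stood at 0.272 and 0.009 CPM. The 8 erythroid marker genes summed in mesenchyme-like cells of dual-enSERT-2 to 3963 CPM, against 311 CPM in dual-enSERT-1. Erythroid-like cells, which are expected to lack the Msx genes, are given below for comparison. Globin RNA fills much of their UMIs, with Hbb-y alone at 389531 and 305782 CPM. The mesenchyme gene Prrx1 stood at 14.9 and 9.02 CPM in them in dual-enSERT-1 and dual-enSERT-2. It stood at 33.7 and 35.1 CPM in endothelial-like, 57.3 and 78.6 CPM in muscle-like and 88.2 and 135 CPM in macrophage-like cells. The erythroid-like level is therefore no upper limit for free RNA in other classes.

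Msx1 was highest in the mesenchyme of both libraries and Msx2 in the ectoderm. In mesenchyme-like cells Msx1 stood at 184 CPM for dual-enSERT-1 and 193 CPM for dual-enSERT-2 (95% exact Poisson intervals 182 to 186 and 190.3 to 195). It stood at 108 and 90.3 CPM in ectoderm-like cells of dual-enSERT-1 and dual-enSERT-2, at 28.8 and 28.2 CPM in endothelial-like, 15.8 and 22.4 CPM in muscle-like, 16.5 and 26.8 CPM in macrophage-like and 6.12 and 2.38 CPM in erythroid-like cells. By point value the libraries gave the same order for the first 3 of these classes, and the muscle-like and macrophage-like levels overlapped. The endothelial-like level overlapped the macrophage-like level in both libraries, and the muscle-like level in dual-enSERT-2, within counting error. With every cell thinned to 5000 UMIs, an Msx1 UMI was found in 33.3% and 42.6% of the mesenchyme-like cells of dual-enSERT-1 and dual-enSERT-2 (44.5% and 63.5% unthinned), against 2.45% and 1.04% of erythroid-like cells (8.16% and 6.11% unthinned). Before thinning the median depths were 13834.5 and 25590.5 UMIs in mesenchyme-like cells and 19408 and 27305 in erythroid-like cells. Msx2 stood at 105 CPM for dual-enSERT-1 and 84.0 CPM for dual-enSERT-2 in ectoderm-like cells, against 11.3 and 7.96 CPM in mesenchyme-like cells. In endothelial-like, muscle-like and macrophage-like cells Msx2 rested on at most 12 UMIs in either library, so its order among them was not resolved at this depth.

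The 4 Id genes divided between classes in different ways. Id1 stood at 325 and 204 CPM in mesenchyme-like cells of dual-enSERT-1 and dual-enSERT-2 and at 248 and 226 CPM in endothelial-like cells, and these 2 classes changed places between the libraries. Its ectoderm-like level was 150.1 and 111 CPM and its muscle-like level 139.8 and 47.9 CPM, so that muscle differed between the libraries more than it differed from ectoderm in dual-enSERT-1. Id2 was highest in muscle-like cells, at 263 CPM for dual-enSERT-1 and 379.9 CPM for dual-enSERT-2. Its levels in mesenchyme-like (137 and 112 CPM) and ectoderm-like cells (114 and 120.1 CPM) changed places between the libraries, macrophage-like cells stood near them at 90.5 and 102 CPM, and endothelial-like cells were lower at 46.3 and 22.6 CPM. Id3 was highest in endothelial-like cells, at 796 CPM for dual-enSERT-1 and 938 CPM for dual-enSERT-2, and 89.2% and 95.8% of those cells held an Id3 UMI at 5000 UMIs (95.05% and 92.3% unthinned), against 5.31% and 2.70% of erythroid-like cells. Mesenchyme-like cells followed for Id3 at 336 and 334 CPM, and muscle-like (279.9 and 312 CPM) and ectoderm-like cells (287 and 183 CPM) overlapped within counting error in dual-enSERT-1 but not in dual-enSERT-2. Id4, known best for its role in the nervous system, was low in all classes. Its highest values were 8.58 and 3.93 CPM in ectoderm-like and 6.34 and 3.06 CPM in mesenchyme-like cells, whose 95% intervals overlapped within each library, and no Id4 UMI was found in macrophage-like cells of dual-enSERT-1, where 3 counts would be 2.36 CPM.

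Among the feedback inhibitors Bambi was concentrated in the ectoderm, while Smad6 and Smad7 varied less between the classes outside blood. Bambi stood at 345 CPM for dual-enSERT-1 and 343 CPM for dual-enSERT-2 in ectoderm-like cells (95% intervals 331 to 360.0 and 325 to 363). Endothelial-like cells followed at 100.2 and 98.8 CPM, then mesenchyme-like cells at 41.4 and 34.5 CPM, macrophage-like cells at 12.6 and 10.6 CPM and muscle-like cells at 7.71 and 6.04 CPM, an order shared by both libraries, in which the intervals of the last 2 classes overlapped. Smad6 was highest in ectoderm-like cells at 60.7 and 51.6 CPM. Its levels in mesenchyme-like (33.3 and 36.7 CPM), muscle-like (30.02 and 38.0 CPM) and endothelial-like cells (28.6 and 40.3 CPM) did not separate. Smad7 stood at 134 CPM for dual-enSERT-1 and 48.4 CPM for dual-enSERT-2 in endothelial-like cells and at 128 and 78.3 CPM in mesenchyme-like cells, so the highest class differed between libraries. Its muscle-like (79.8 and 52.2 CPM) and ectoderm-like levels (57.9 and 51.0 CPM) overlapped within counting error in dual-enSERT-2 but not in dual-enSERT-1. The class with the highest level was thus the same in both libraries for 7 of the 9 genes, Id1 and Smad7 being the exceptions. By point value all 9 were lowest in erythroid-like cells of dual-enSERT-2, and in dual-enSERT-1 all but Id4 were. For Msx2 and Id4 the lowest class was not resolved at this depth. In dual-enSERT-2, for example, endothelial-like, muscle-like and macrophage-like cells held 1 Id4 UMI each.

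**Figure D1:**
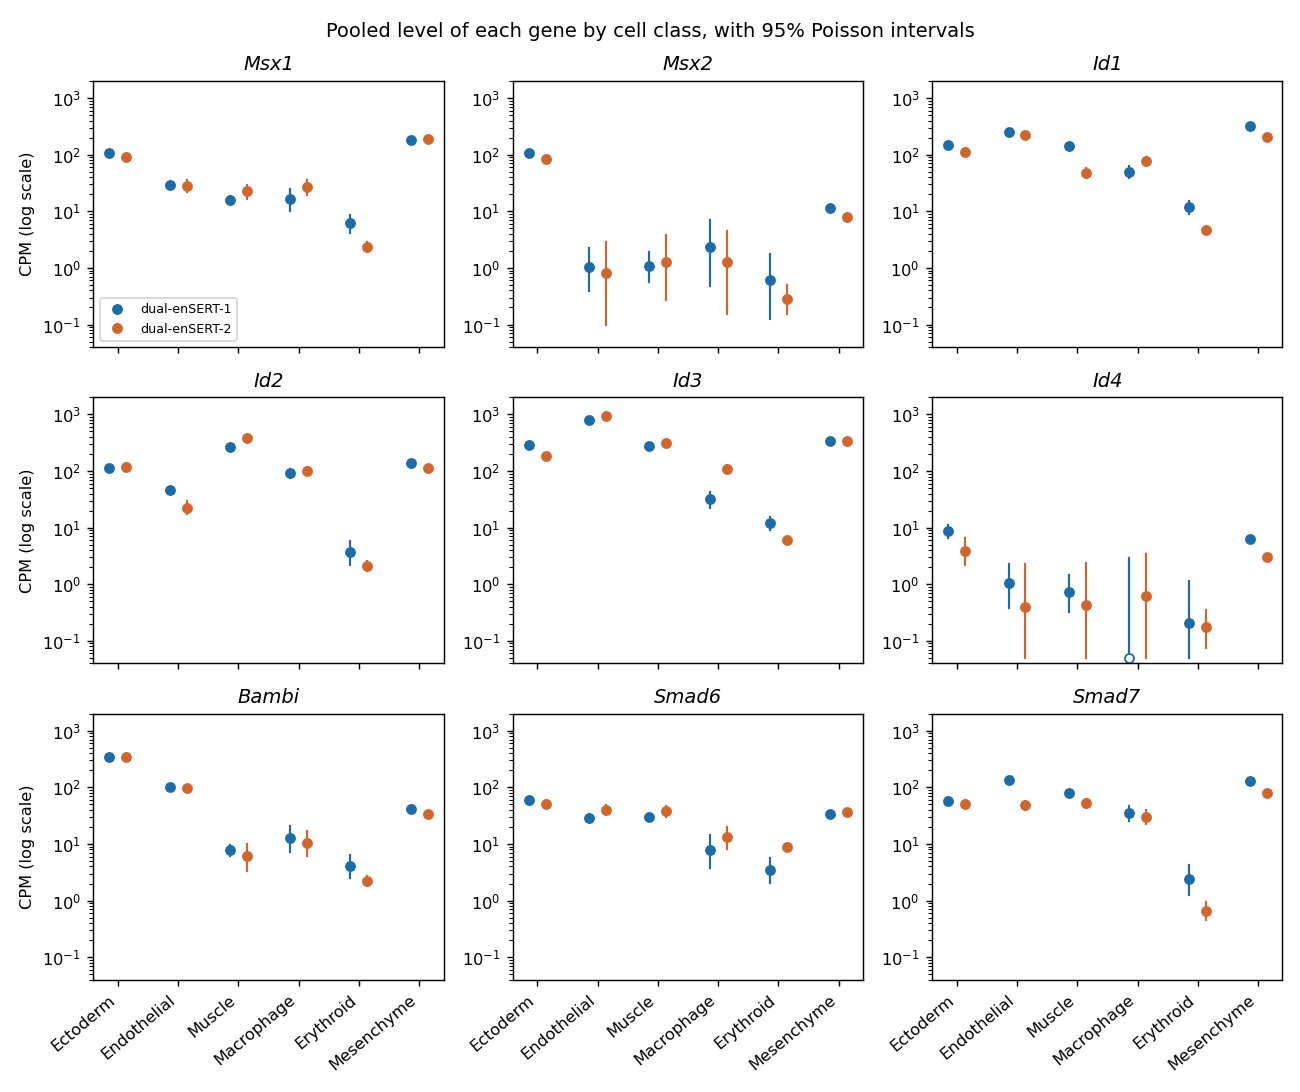
Level of each of the 9 genes in 6 cell classes of both libraries, in CPM on a log axis, with bars for the 95% exact Poisson interval and an open point at the axis for a count of 0. Msx2 and Bambi are highest in ectoderm-like cells (Bambi at 345 and 343 CPM), Id2 in muscle-like cells, Id3 in endothelial-like cells and Msx1 in mesenchyme-like cells.

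Ectoderm-like cells held more Msx2 and Bambi than mesenchyme-like cells, and less Msx1, Id1 and Smad7. A gene was called higher or lower where it reached 20 CPM in at least one of the compared cell groups in both libraries and its log2 fold change, computed with 1 CPM added, was at or past 0.58 (1.5-fold) in the same direction in both. By that rule 5 of the 9 genes were called, 2 higher and 3 lower, with 8 reaching the level and Id4 below it, where 10.3% of all features that reached it were called higher and 8.86% lower. Msx2 stood at 105 CPM in ectoderm-like cells against 11.3 CPM in mesenchyme-like cells in dual-enSERT-1, and 84.0 CPM in ectoderm-like cells against 7.96 CPM in mesenchyme-like cells in dual-enSERT-2. That is a log2 fold change of 3.11 for dual-enSERT-1 and 3.25 for dual-enSERT-2, with 95% intervals of the ratio of 8.55 to 10.2 for dual-enSERT-1 and 9.27 to 12.01 for dual-enSERT-2. Msx2 reached the level of 20 CPM through the ectoderm-like cells alone. Bambi had log2 fold changes of 3.03 for dual-enSERT-1 and 3.28 for dual-enSERT-2 (ratio 7.95 to 8.73 for dual-enSERT-1 and 9.34 to 10.6 for dual-enSERT-2). The class was uneven for Bambi, and its cells without an Fgf8 UMI, described below, held 33.6 and 57.9 CPM, against 41.4 and 34.5 CPM in mesenchyme-like cells. On the lower side, Msx1 stood at 108 CPM in ectoderm-like cells against 184 CPM in mesenchyme-like cells in dual-enSERT-1, and 90.3 CPM in ectoderm-like cells against 193 CPM in mesenchyme-like cells in dual-enSERT-2, with log2 fold changes of -0.76 and -1.09. Id1 had log2 fold changes of -1.11 for dual-enSERT-1 and -0.87 for dual-enSERT-2, and Smad7 of -1.13 for dual-enSERT-1 and -0.61 for dual-enSERT-2. Smad6 reached 0.85 for dual-enSERT-1 and 0.48 for dual-enSERT-2, and Id3 -0.23 and -0.86, so each was past the fold in 1 library. Over the whole class the 2 Msx genes, which encode near relatives, were thus on opposite sides of this comparison. The class was uneven for Msx1 too. Ectoderm-like cells with an Fgf8 UMI, described below, held more Msx1 than mesenchyme-like cells in dual-enSERT-1 and less in dual-enSERT-2. Those without the UMI held less in both libraries. Median log2 fold changes were -0.24 over the 8 genes that reached the level for dual-enSERT-1 and -0.25 for dual-enSERT-2, beside -0.13 and -0.08 over all features tested, and with Id4 added they were -0.23 and 0.10. Mesenchyme marker genes summed to 211 CPM in ectoderm-like cells against 2472 CPM in mesenchyme-like cells in dual-enSERT-1, and 259 CPM in ectoderm-like cells against 2169.7 CPM in mesenchyme-like cells in dual-enSERT-2. Of that list, Pdgfra alone stood at 78.8 and 131 CPM in ectoderm-like cells of dual-enSERT-1 and dual-enSERT-2. In mesenchyme-like cells it stood at 164 and 88.1 CPM, so in dual-enSERT-2 it was higher in the ectoderm. The other markers of the list were lower in ectoderm-like cells in both libraries. Erythroid marker genes summed to 286 and 7919 CPM in ectoderm-like cells against 311 and 3963 CPM in mesenchyme-like cells of dual-enSERT-1 and dual-enSERT-2. The part of either list in these levels was not tested.

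Among the other genes of the pathway, 3 of 6 listed ligands reached the level and all 3 were called higher in ectoderm-like cells, with log2 fold changes in dual-enSERT-1 and dual-enSERT-2 of 0.64 and 1.92 for Bmp4, 0.93 and 2.02 for Bmp5 and 1.44 and 1.93 for Bmp7. Of the 6 receptor genes, all reached the level and none was called. Of 9 antagonist genes, Sostdc1 was called higher (2.82 and 3.75) and Grem1 lower (-4.55 and -3.66). Of 7 further genes known to respond to BMP, Dlx5, a homeobox gene of the ridge, was called higher (3.68 and 4.52), and Tbx2 and Hey1 lower.

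Within the ectoderm, cells with a UMI of Fgf8, the growth factor gene of the apical ectodermal ridge, held Bambi, Msx1 and Msx2 at higher levels than cells without one. Cells with an Fgf8 UMI after thinning to 5000 UMIs numbered 70 for dual-enSERT-1 and 60 for dual-enSERT-2, against 249 and 91 without. Of the 9 genes, 3 were called higher and 0 lower, with 8 reaching the level, where 6.97% of all features were called higher and 4.57% lower. Bambi stood at 1106 CPM in cells with an Fgf8 UMI against 33.6 CPM in cells without one in dual-enSERT-1, and 674 CPM in cells with an Fgf8 UMI against 57.9 CPM in cells without one in dual-enSERT-2. Its log2 fold changes were 5.0 for dual-enSERT-1 and 3.52 for dual-enSERT-2, with ratios of 27.7 to 39.3 for dual-enSERT-1 and 9.60 to 14.2 for dual-enSERT-2. Msx1 stood at 274 CPM in cells with an Fgf8 UMI against 40.7 CPM in cells without one in dual-enSERT-1, and 157 CPM in cells with an Fgf8 UMI against 29.4 CPM in cells without one in dual-enSERT-2, log2 fold changes of 2.72 and 2.38. Msx2 stood at 256 CPM in cells with an Fgf8 UMI against 41.7 CPM in cells without one in dual-enSERT-1, and 124 CPM in cells with an Fgf8 UMI against 49.2 CPM in cells without one in dual-enSERT-2, log2 fold changes of 2.59 and 1.32. Each of these 3 genes was higher in the cells with the UMI in both libraries, and the ranges over libraries did not overlap. The inhibitory Smads and Id2 differed between libraries here. Smad7 had 1.42 for dual-enSERT-1 and -0.02 for dual-enSERT-2, Smad6 1.32 and 0.25, and Id2 0.96 and -0.02. Id1 had 0.05 and -0.11 and Id3 0.56 and 0.36.

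Bmp2, Bmp4, Bmp5 and Bmp7, the 4 of 6 listed ligand genes that reached the level, were all called higher in ectoderm-like cells with an Fgf8 UMI. Bmp4 stood at 521 CPM in cells with an Fgf8 UMI against 25.8 CPM in cells without one in dual-enSERT-1, and 551 CPM in cells with an Fgf8 UMI against 22.8 CPM in cells without one in dual-enSERT-2. Dlx5, Dlx6 and Tbx3, all 3 of the further responding genes that reached the level, were called higher as well, and the receptor gene Bmpr1b and the antagonist gene Sostdc1 were called lower. The 4 ridge marker genes, Fgf8 among them, summed to 2970.2 CPM in cells with the UMI against 121 CPM in cells without in dual-enSERT-1, and 3806 CPM in cells with the UMI against 157 CPM in cells without in dual-enSERT-2. Mesenchyme marker genes also moved with this split and summed to 424 CPM in cells with the UMI against 127 CPM in cells without in dual-enSERT-1, and 428 CPM in cells with the UMI against 107 CPM in cells without in dual-enSERT-2, and in dual-enSERT-1 dissociation stress genes stood at 288 CPM in cells with the UMI against 111 CPM in cells without. In dual-enSERT-2 the stress genes went the other way, at 150.3 CPM in cells with the UMI against 207 CPM in cells without. Erythroid marker genes there summed to 2723 CPM in cells with the UMI against 12636 CPM in cells without, beside 226 and 282 CPM in dual-enSERT-1. Pdgfra, a large part of the mesenchyme sum in ectoderm-like cells, was not read on its own across this split. The part of these lists in the Bambi and Msx levels was not tested.

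**Figure D2:**
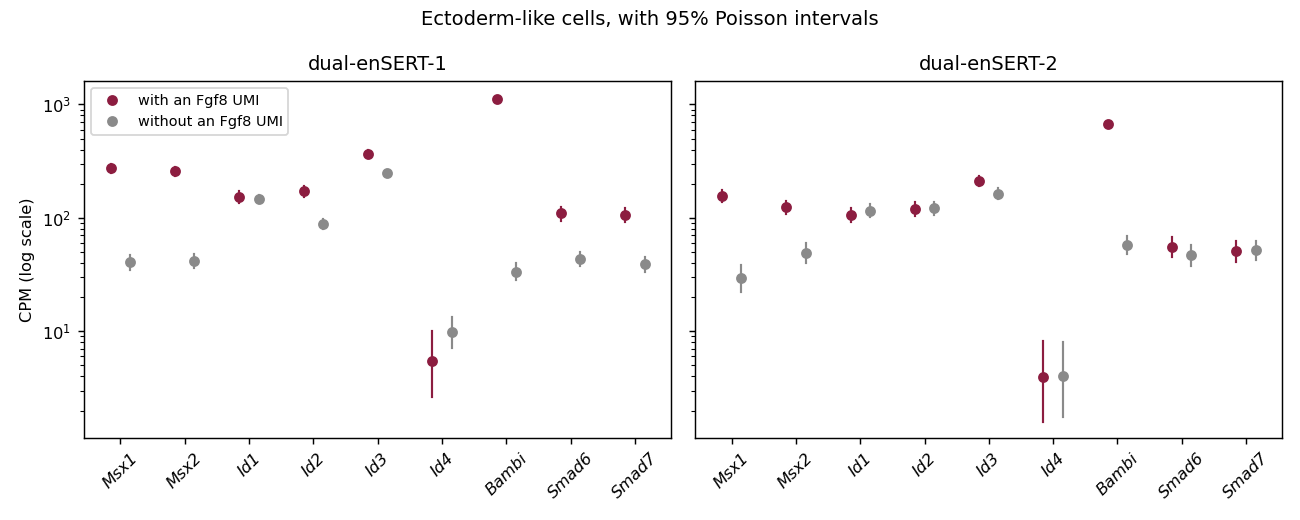
Level of the 9 genes in ectoderm-like cells with an Fgf8 UMI and without one, in each library, in CPM on a log axis, with 95% exact Poisson intervals. Bambi, Msx1 and Msx2 lie higher in the cells with the UMI in both libraries, and Id1 lies at nearly one level on both sides.

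In the endothelium Id3 and Bambi were higher, and Msx1 and Id2 lower, than in the mesenchyme. By the same rule 4 of the 9 genes were called, 2 in each direction, with 7 reaching the level, where 18% of all features were called higher and 20.3% lower. Id3, known to act in the growth of new vessels, stood at 796 CPM in endothelial-like cells against 336 CPM in mesenchyme-like cells in dual-enSERT-1, and 938 CPM in endothelial-like cells against 334 CPM in mesenchyme-like cells in dual-enSERT-2. Its log2 fold changes were 1.24 and 1.49, and the ratios had intervals of 2.30 to 2.44 for dual-enSERT-1 and 2.69 to 2.93 for dual-enSERT-2. Bambi had 1.25 for dual-enSERT-1 and 1.49 for dual-enSERT-2. Msx1 stood at 28.8 CPM in endothelial-like cells against 184 CPM in mesenchyme-like cells in dual-enSERT-1, and 28.2 CPM in endothelial-like cells against 193 CPM in mesenchyme-like cells in dual-enSERT-2, log2 fold changes of -2.64 and -2.73. Id2 had log2 fold changes of -1.54 for dual-enSERT-1 and -2.26 for dual-enSERT-2. Id1, a close relative of Id3, had -0.39 for dual-enSERT-1 and 0.15 for dual-enSERT-2, so its sign differed between libraries. Smad7 had 0.06 and -0.68, and Smad6 -0.21 and 0.13. Of 6 receptor genes 4 were called lower in endothelial-like cells, with log2 fold changes of -4.2 for dual-enSERT-1 and -4.25 for dual-enSERT-2 for Bmpr1a and -3.39 for dual-enSERT-1 and -2.8 for dual-enSERT-2 for Bmpr1b, Acvr2a and Acvr2b being the others. Hey1, a Notch and BMP target of arterial cells, was called higher (1.64 and 1.61). The dissociation stress genes summed to 693 CPM in endothelial-like cells against 315 CPM in mesenchyme-like cells in dual-enSERT-1, and 385 CPM in endothelial-like cells against 223 CPM in mesenchyme-like cells in dual-enSERT-2, and Jun, Junb and Atf3 of that list were called higher. Erythroid marker genes summed to 2063 and 21967 CPM in endothelial-like cells against 311 and 3963 CPM in mesenchyme-like cells of dual-enSERT-1 and dual-enSERT-2. The part of either in the Id3 level was not tested.

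Muscle-like cells held more Id2 than mesenchyme-like cells, and less Msx1, Bambi and Id1. Against mesenchyme-like cells 4 of the 9 genes were called, 1 higher and 3 lower, with 7 reaching the level, where 2.73% of all features were called higher and 5.3% lower. Id2 stood at 263 CPM in muscle-like cells against 137 CPM in mesenchyme-like cells in dual-enSERT-1, and 379.9 CPM in muscle-like cells against 112 CPM in mesenchyme-like cells in dual-enSERT-2. The log2 fold changes were 0.93 and 1.76, so that the call is lost at a log2 fold of 1, with ratios of 1.84 to 1.99 for dual-enSERT-1 and 3.17 to 3.64 for dual-enSERT-2. Msx1, which in mouse cells is known to hold back myogenic differentiation, stood at 15.8 CPM in muscle-like cells against 184 CPM in mesenchyme-like cells in dual-enSERT-1, and 22.4 CPM in muscle-like cells against 193 CPM in mesenchyme-like cells in dual-enSERT-2, log2 fold changes of -3.46 and -3.05. Bambi had -2.28 for dual-enSERT-1 and -2.33 for dual-enSERT-2. It reached the level of 20 CPM through the mesenchyme-like cells alone, as did Msx1 in dual-enSERT-1. Id1 had -1.21 for dual-enSERT-1 and -2.06 for dual-enSERT-2, and its muscle-like level itself differed by 1.53 on the log2 scale between the libraries. Smad7 stood just past the fold in dual-enSERT-1 and just inside it in dual-enSERT-2, at -0.68 and -0.57, and Id3 had -0.26 and -0.10. Msx1 UMIs were found in 5.70% and 9.33% of muscle-like cells thinned to 5000 UMIs (15.2% and 30.3% unthinned), beside 2.45% and 1.04% of erythroid-like cells. The mesenchyme gene Prrx1 stood at 57.3 and 78.6 CPM in muscle-like cells against 768 and 743 CPM in mesenchyme-like cells of dual-enSERT-1 and dual-enSERT-2. The part of mesenchyme RNA in the muscle-like Msx1 level was not tested. The antagonist gene Fst (4.56 and 5.06) and the receptor genes Bmpr1b (1.92 and 2.33) and Acvr2a (1.04 and 1.15) were called higher in muscle-like cells, and Bmp4, Grem1, Tbx2 and Tbx3 lower. Erythroid marker genes summed to 1674 and 6591 CPM in muscle-like cells against 311 and 3963 CPM in mesenchyme-like cells of dual-enSERT-1 and dual-enSERT-2, and their part in these levels was not tested.

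Muscle-like cells of dual-enSERT-1 could be divided by Myod1 or Myog, which mark committed myoblasts, into 120 cells with such a UMI and 354 without. The 75 muscle-like cells of dual-enSERT-2 that reached 5000 UMIs held none once thinned to that depth. This allows a share of up to 4% of cells with such a UMI after thinning and sets no limit on cells that express the genes. Before thinning, muscle-like cells held Myod1 at 87.9 CPM and Myog at 107.9 CPM in dual-enSERT-1, and Myod1 at 1.30 CPM with no Myog UMI in dual-enSERT-2. The comparison therefore rests on 1 library. Id1 was called higher, at 188 CPM in cells with a Myod1 or Myog UMI against 123 CPM in cells without one (log2 fold change 0.62, ratio 1.38 to 1.71), where 4.19% of all features were called higher and 2.76% lower. Id2 had -0.03 and Id3 0.08. Erythroid marker genes summed to 5446 CPM in the cells with the UMI against 285 CPM in the cells without, and the Id1 call was lost when doublets were kept or cells were not thinned. The part of erythroid RNA in that call was not tested.

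Across the mesenchyme, anterior cells held more Msx1, Msx2 and Id2 than posterior cells. Position was read from an index, the number of Hand2, Hoxd11, Hoxd12 and Tbx2 with a UMI minus the number of Pax9, Alx1 and Alx4, in cells thinned to 5000 UMIs. It gave 465 anterior, 3684 middle and 8990 posterior cells in dual-enSERT-1, and 134, 1264 and 2682 such cells in dual-enSERT-2. Of the 9 genes, 3 were called higher and 0 lower in anterior cells, with 8 reaching the level, where 1.3% of all features were called higher and 0.877% lower. Msx1 stood at 356 CPM in anterior cells against 169 CPM in posterior cells in dual-enSERT-1, and 389 CPM in anterior cells against 159 CPM in posterior cells in dual-enSERT-2, log2 fold changes of 1.07 and 1.29. In middle cells it stood at 203 CPM for dual-enSERT-1 and 249 CPM for dual-enSERT-2, between the other two. Msx2 stood at 32.9 CPM in anterior cells against 9.62 CPM in posterior cells in dual-enSERT-1, and 29.8 CPM in anterior cells against 4.82 CPM in posterior cells in dual-enSERT-2. Its log2 fold changes were 1.68 and 2.4 (ratios 2.97 to 3.93 for dual-enSERT-1 and 4.93 to 7.68 for dual-enSERT-2), and it reached the level of 20 CPM through the anterior cells alone. Id2 had log2 fold changes of 0.75 for dual-enSERT-1 and 0.64 for dual-enSERT-2. Id3 and Id1 were on the same side at 0.34 and 0.57 and at 0.32 and 0.33, short of the fold. Bambi (0.11 and 0.29), Smad7 (0.16 and 0.26) and Smad6 (0.10 and -0.09) stood nearer 0. Median log2 fold changes were 0.34 over the 9 genes for dual-enSERT-1 and 0.56 for dual-enSERT-2, beside -0.0046 and 0.03 over all features tested. Grem1 was called lower in anterior cells (-2.27 and -1.86), as were Tbx3 (-1.3 and -1.79) and Hey1. Tbx2 was lower too, but it is part of the index. Tbx2 and Tbx3 are themselves known to respond to BMP, and with Tbx2 left out of the index the same count of 3 of the 9 genes was called. The dissociation stress genes summed to 259 CPM in anterior cells against 326 CPM in posterior cells in dual-enSERT-1, and 165 CPM in anterior cells against 238 CPM in posterior cells in dual-enSERT-2. Erythroid marker genes summed to 292 and 2374 CPM in anterior cells against 308 and 4296 CPM in posterior cells of dual-enSERT-1 and dual-enSERT-2. The part of either list in these levels was not tested.

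Distal cells held more Msx1 and Bambi than proximal cells. A UMI of Hoxa13 or of Hoxd13 defined distal cells (4329 for dual-enSERT-1 and 645 for dual-enSERT-2), and one of Meis1 or Meis2 with neither of these defined proximal cells (3406 and 1518). Of the 9 genes 2 were called higher and 0 lower, with 7 reaching the level, where 1.65% of all features were called higher and 2.56% lower. Msx1 stood at 256 CPM in distal cells against 70.0 CPM in proximal cells in dual-enSERT-1, and 274 CPM in distal cells against 108 CPM in proximal cells in dual-enSERT-2, log2 fold changes of 1.86 and 1.34. Bambi stood at 61.4 CPM in distal cells against 22.8 CPM in proximal cells in dual-enSERT-1, and 50.5 CPM in distal cells against 27.6 CPM in proximal cells in dual-enSERT-2, log2 fold changes of 1.39 and 0.85. Id2 ran the other way, at -0.48 and -0.49, short of the fold in both libraries. Msx2, below 20 CPM in every one of these groups, had 0.70 for dual-enSERT-1 and -0.28 for dual-enSERT-2. Id1 was past the fold in dual-enSERT-1 alone (0.68 and 0.04). Most distal cells were posterior by the index (86.8% and 88.8%). Within posterior cells the log2 fold changes of distal over proximal were 1.74 and 1.74 for Msx1 and 1.24 and 0.92 for Bambi in dual-enSERT-1 and dual-enSERT-2. Within proximal cells the anterior over posterior fold of Msx1 was 0.69 and 2.01, that of Msx2 0.86 and 2.07, and that of Id2 -0.17 and 0.52, so the Id2 difference turned its sign there in dual-enSERT-1. Bmp4 was called higher in distal cells (1.15 and 0.94).

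**Figure D3:**
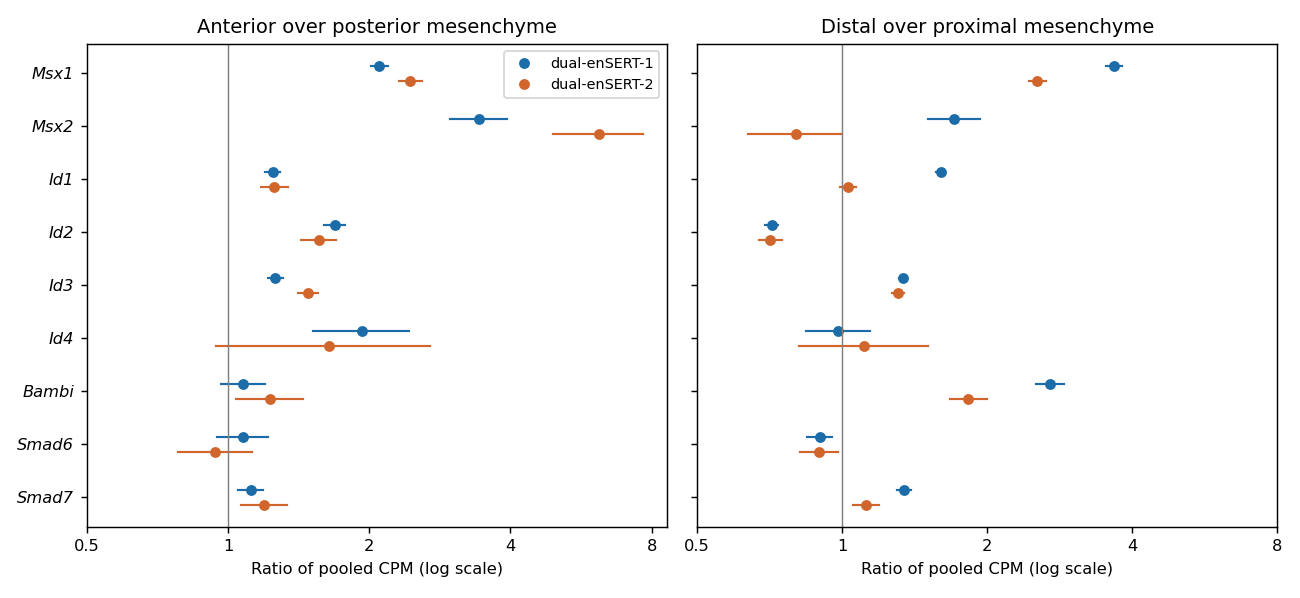
Ratio of pooled CPM on a log axis for each of the 9 genes in mesenchyme-like cells of both libraries, anterior over posterior in the left panel and distal over proximal in the right, with bars for the 95% exact conditional interval and a line at equal levels. Msx2 and Msx1 lie farthest to the right in the left panel, and Msx1 and Bambi in the right one, where the points of Msx2 stand on opposite sides of the line.

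Mesenchyme-like cells with a UMI of Bmp4, the main BMP ligand gene of the early limb bud, held more Msx1 and Bambi than cells without one. Cells with a Bmp4 UMI after thinning numbered 3843 and 927 in dual-enSERT-1 and dual-enSERT-2, against 9296 and 3153 without. The same 2 of the 9 genes as between distal and proximal cells were called higher and 0 lower, with 7 reaching the level, where 0.4% of all features were called higher and 0.311% lower. Msx1 stood at 342 CPM in cells with a Bmp4 UMI against 112 CPM in cells without one in dual-enSERT-1, and 261 CPM in cells with a Bmp4 UMI against 173 CPM in cells without one in dual-enSERT-2. Its log2 fold changes were 1.61 and 0.59, the second only just past the fold, and the call was lost in dual-enSERT-2 with a pseudocount of 5 CPM, with the mean of each cell's CPM (0.57) and with thinning to 2000 UMIs (0.31). Bambi stood at 68.4 CPM in cells with a Bmp4 UMI against 29.4 CPM in cells without one in dual-enSERT-1, and 53.1 CPM in cells with a Bmp4 UMI against 29.1 CPM in cells without one in dual-enSERT-2, log2 fold changes of 1.19 and 0.84. Msx2 had 1.31 and 1.0 but lay below 20 CPM, at 19.8 and 13.5 CPM with the UMI and 7.39 and 6.27 CPM without. The Id genes that reached the level differed less, with 0.52 and 0.64 for Id1, 0.41 and 0.44 for Id2 and 0.40 and 0.67 for Id3. Smad7 had 0.50 and 0.21, and Smad6 0.15 and 0.22. All 9 values were above 0 in both libraries, Id4 included, with medians of 0.50 over the 9 genes for dual-enSERT-1 and 0.59 for dual-enSERT-2, beside 0.002 and 0.0033 over all features tested.

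By the number of Bmp4 UMIs, 0, 1, and 2 or more, Msx1 stood at 112, 273 and 434 CPM in dual-enSERT-1 and at 173, 249 and 284 CPM in dual-enSERT-2. Bambi stood at 29.4, 55.6 and 85.2 CPM and at 29.1, 45.1 and 69.4 CPM. Both genes stepped up with each class in both libraries. Id3 did so as well, at 305, 381 and 433 CPM and at 295, 434 and 544 CPM, and so did Id1, Id2 and Id4. Msx2 stepped up to 25.7 CPM in dual-enSERT-1, while in dual-enSERT-2 cells with 1 and with 2 or more Bmp4 UMIs held 13.3 and 14.0 CPM. Smad6 stood at 32.6, 36.9 and 35.3 CPM in dual-enSERT-1 with no further step at the end, and Smad7 likewise in dual-enSERT-2, at 76.1, 89.2 and 85.4 CPM. At 5000 UMIs, 17.1% and 12.5% of mesenchyme-like cells held UMIs of both Msx1 and Bmp4, where the product of the single shares is 9.73% and 9.69%.

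**Figure D4:**
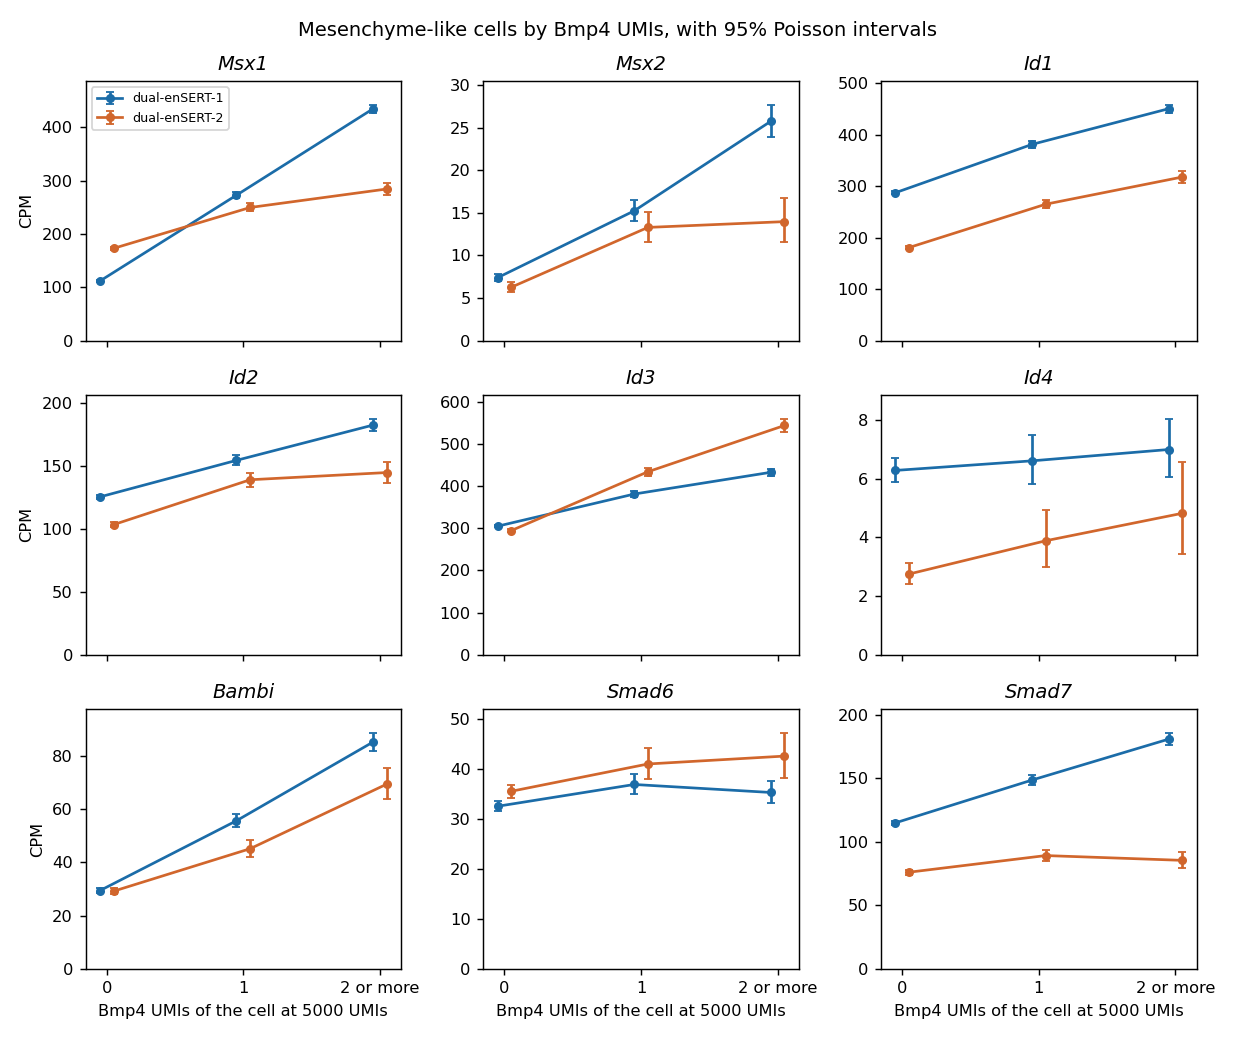
Level of the 9 genes in mesenchyme-like cells with 0, 1, and 2 or more Bmp4 UMIs after thinning to 5000 UMIs, in each library, in CPM on linear axes that start at 0, with a scale of its own for each gene and bars for the 95% exact Poisson interval. Msx1 and Bambi step up with each class in both libraries, reaching 434 and 284 CPM for Msx1, and Smad6 stays within 32.6 to 42.6 CPM.

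Position moved with the Bmp4 split. Distal cells made up 46.9% and 25.0% of the cells with a Bmp4 UMI in dual-enSERT-1 and dual-enSERT-2, against 27.2% and 13.1% of those without. Within distal cells Bambi kept log2 fold changes of 0.94 for dual-enSERT-1 and 0.90 for dual-enSERT-2 between cells with and without the UMI. Msx1 kept 1.13 in dual-enSERT-1, but had 0.17 in dual-enSERT-2, short of the fold. Within posterior cells Msx1 (1.65 and 0.72) and Bambi (1.23 and 1.05) were both past it. In middle cells Msx1 (1.72 and 0.68) and Msx2 (1.24 and 0.80) were called, and in anterior cells Msx2 alone (1.65 and 1.4). Over all mesenchyme-like cells Msx2 lay below 20 CPM on both sides of the Bmp4 split. It reached that level in these strata at least in the cells with the UMI. The anterior cells of dual-enSERT-2 numbered 134, of which 22.4% held a Bmp4 UMI. Bambi had 0.77 and 0.16 in anterior cells. Whether these strata differ from each other was not tested. Of the other pathway genes, no receptor, Smad, co-receptor or antagonist gene was called between cells with and without a Bmp4 UMI. Tbx3 was called higher (1.18 and 1.9), as was Tbx2 (1.71 and 2.7), a gene of the position index.

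**Figure D5:**
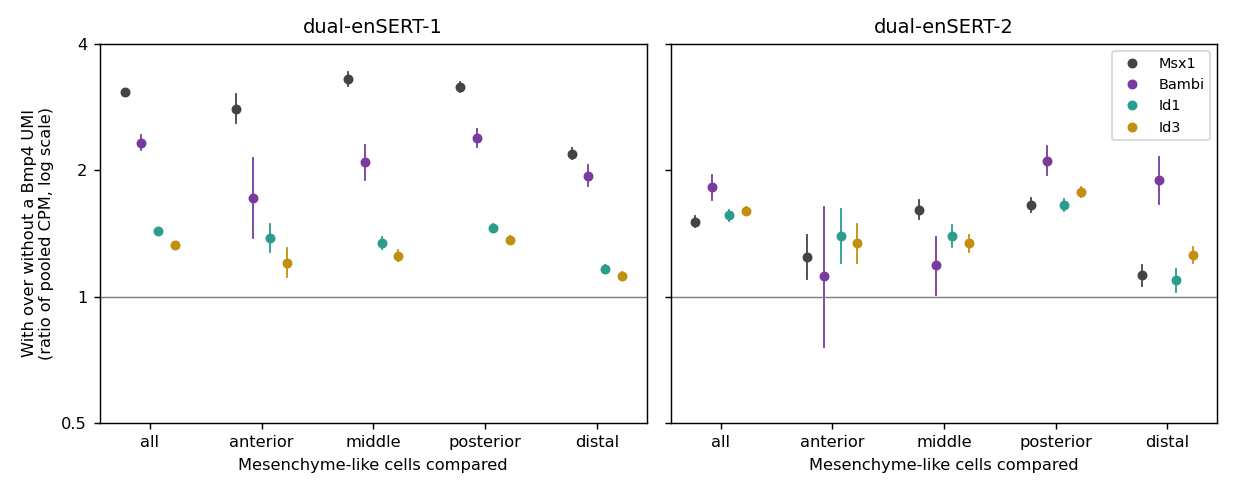
Ratio of pooled CPM, on a log axis, of mesenchyme-like cells holding a Bmp4 UMI over those without, for Msx1, Bambi, Id1 and Id3, over all such cells and within anterior, middle, posterior and distal cells, in each library, with bars for the 95% exact conditional interval. Bambi is past 1.5-fold in both libraries within distal and within posterior cells, and Msx1 is so in dual-enSERT-1 in all 4 strata.

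Cells with a UMI of Grem1, the secreted BMP antagonist gene, held less Id3 and Msx1 than cells without one. They numbered 1433 and 666 in dual-enSERT-1 and dual-enSERT-2, against 11706 and 3414 without. Of the 9 genes 2 were called lower and 0 higher, with 7 reaching the level, where 0.164% of all features were called higher and 0.446% lower. Id3 stood at 186 CPM in cells with a Grem1 UMI against 358 CPM in cells without one in dual-enSERT-1, and 181 CPM in cells with a Grem1 UMI against 368 CPM in cells without one in dual-enSERT-2, log2 fold changes of -0.94 and -1.02 (ratios 0.504 to 0.534 for dual-enSERT-1 and 0.474 to 0.508 for dual-enSERT-2). Msx1 stood at 127 CPM in cells with a Grem1 UMI against 193 CPM in cells without one in dual-enSERT-1, and 123 CPM in cells with a Grem1 UMI against 208 CPM in cells without one in dual-enSERT-2, log2 fold changes of -0.60 and -0.75. Inside the fold in dual-enSERT-1 and past it in dual-enSERT-2 were Id2 (-0.57 and -0.61), Bambi (-0.52 and -0.75) and Id1 (-0.43 and -0.63). Msx2, below the level, had -1.64 and -2.05. All 9 values were below 0 in both libraries, with medians of -0.52 over the 9 genes for dual-enSERT-1 and -0.63 for dual-enSERT-2, beside 0.0067 and 0.0033 over all features tested, and Smad6 (-0.19 and -0.10) and Smad7 (-0.22 and -0.10) stood nearest 0. Posterior cells made up 84.7% and 78.8% of the cells with a Grem1 UMI, against 66.4% and 63.2% of cells without one. Distal cells made up 48.8% against 31.0% in dual-enSERT-1 and 14.1% against 16.1% in dual-enSERT-2. Proximal cells made up 4.54% against 28.5% and 29.7% against 38.7%. Cells with a Bmp4 UMI made up 28.3% against 29.4% and 12.2% against 24.8%. The part of these mixtures in the Id3 and Msx1 levels was not tested. Within posterior cells Id3 (-1.01 and -0.99), Msx1 (-0.73 and -0.64) and Bambi (-0.69 and -0.83) were called lower. Within middle cells Id3 was called (-0.63 and -1.11), while Msx1 had 0.19 for dual-enSERT-1 and -0.66 for dual-enSERT-2. The Msx1 call was lost in dual-enSERT-1 with doublets kept (-0.53), with the mean of each cell's CPM (-0.51) and without thinning (-0.35), while Id3 stayed past the fold under each of these. With 2 Grem1 UMIs required in place of 1, 5 of the 9 genes were called. Tbx3, Tbx2 and the receptor gene Bmpr1b were called lower in cells with a Grem1 UMI, at -1.75 and -1.53, -1.48 and -2.51, and -0.59 and -1.29.

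Between cells with and without a UMI of Lmx1b, the transcription factor gene of the dorsal mesenchyme (4133 and 390 cells with it against 9006 and 3690 without), 0 of the 9 genes were called, where 0.323% of all features were called higher and 0.044% lower. Here the libraries went apart. The median over the 9 genes was -0.11 for dual-enSERT-1 and 0.31 for dual-enSERT-2, and Id1 (-0.21 and 0.33), Id3 (-0.23 and 0.31) and Smad6 (-0.12 and 0.36) differed in sign beyond counting error.

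Between the libraries, mesenchyme-like cells of dual-enSERT-1 held more Id1 and Smad7. Id1 stood at 325 CPM in dual-enSERT-1 against 204 CPM in dual-enSERT-2, a log2 fold change of 0.67 (ratio 1.57 to 1.62), and Smad7 at 128 CPM in dual-enSERT-1 against 78.3 CPM in dual-enSERT-2, a log2 fold change of 0.70. These 2 of the 9 genes were called higher and 0 lower, where 5.84% of all features were called higher and 2.55% lower. Id3 stood at 336 CPM in dual-enSERT-1 against 334 CPM in dual-enSERT-2 and Msx1 at 184 CPM in dual-enSERT-1 against 193 CPM in dual-enSERT-2. Id1 in muscle-like cells stood at 139.8 CPM in dual-enSERT-1 against 47.9 CPM in dual-enSERT-2, and Smad7 in endothelial-like cells at 134 CPM in dual-enSERT-1 against 48.4 CPM in dual-enSERT-2. The dual-enSERT-1 library was shallower per cell, its mesenchyme-like cells held 315 CPM of dissociation stress genes against 223 CPM in dual-enSERT-2, and 245 of 16039 kept cells were erythroid-like in dual-enSERT-1 against 1637 of 6472 in dual-enSERT-2. The mesenchyme differed in make-up too. After thinning, 4329 of 13139 cells were distal in dual-enSERT-1 against 645 of 4080 in dual-enSERT-2, and 3406 against 1518 were proximal. Cells with an Lmx1b UMI numbered 4133 against 390. Id1 in distal cells stood at 398 CPM in dual-enSERT-1 against 216 CPM in dual-enSERT-2, and in proximal cells at 249 against 211 CPM. Muscle-like cells held Myog at 107.9 CPM in dual-enSERT-1 and no Myog UMI in dual-enSERT-2, and Pax3 at 445 against 701 CPM. The part of these in the Id1 and Smad7 levels was not tested.

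The 9 genes did not move as a block across cell groups, though every pair was positively correlated in both libraries. Over 11 cell groups with at least 20 cells in both libraries (mesenchyme by position, ectoderm with and without Fgf8, and the other classes), the Pearson correlation of log2(CPM + 1) was highest for Id1 with Smad7, at 0.946 for dual-enSERT-1 and 0.941 for dual-enSERT-2. Id1 with Id3 gave 0.919 for dual-enSERT-1 and 0.923 for dual-enSERT-2, and Id3 with Smad7 0.908 for dual-enSERT-1 and 0.928 for dual-enSERT-2. Msx1 with Msx2 gave 0.742 for dual-enSERT-1 and 0.586 for dual-enSERT-2, and Bambi with Smad6 0.789 for dual-enSERT-1 and 0.762 for dual-enSERT-2. The lowest pair in dual-enSERT-1 was Id2 with Bambi, at 0.395, beside 0.300 in dual-enSERT-2. In dual-enSERT-2 it was Msx2 with Id3, at 0.273, beside 0.426 in dual-enSERT-1. These groups share a library and its depth, and erythroid-like cells are low for all 9 genes, so the values are a description. In single mesenchyme-like cells at 5000 UMIs, UMIs of both Msx1 and Msx2 were found in 3.65% and 3.06% of cells of dual-enSERT-1 and dual-enSERT-2, beside products of the single shares of 1.43% and 1.65%. For Id1 and Id3 the shares were 47.1% and 38.7%, beside 41.5% and 33.8%.

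Among 9246 genes compared over the same 11 groups, those most like each of the 9 by the lower of the 2 libraries' correlations were, with r in dual-enSERT-1 and dual-enSERT-2, Crabp1 (0.945 and 0.937) and Epha4 (0.928 and 0.960) for Msx1, and Patj (0.951 and 0.955) and Zim1 (0.9498 and 0.960) for Msx2. For the Id genes they were Cep112 (0.966 and 0.970) and Fsd1l (0.969 and 0.963) for Id1, Ints10 (0.970 and 0.984) and 2810001G20Rik (0.969 and 0.968) for Id2, Cnn3 (0.980 and 0.982) and Rab13 (0.979 and 0.983) for Id3, and Usp29 (0.932 and 0.938) and Scube1 (0.949 and 0.922) for Id4. For the inhibitors they were Rab6a (0.913 and 0.929) and Sorbs2 (0.911 and 0.931) for Bambi, Amotl1 (0.962 and 0.965) and Gja1 (0.971 and 0.951) for Smad6, and Sestd1 (0.979 and 0.987) for Smad7. None of the 9 genes was among the 2 genes most like another of them.

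In the annotation of mm39 the genes lie on 7 chromosomes. Msx1 is ENSMUSG00000048450, chromosome 5, 37977829 to 37981928, minus strand. Msx2 is ENSMUSG00000021469, chromosome 13, 53620914 to 53627110, minus strand, and Id4 (ENSMUSG00000021379, chromosome 13, 48414558 to 48419502, plus strand) lies on the same chromosome. Id1 is ENSMUSG00000042745, chromosome 2, 152566218 to 152579544, plus strand, Id2 ENSMUSG00000020644, chromosome 12, 25143798 to 25147282, minus strand and Id3 ENSMUSG00000007872, chromosome 4, 135870808 to 135873066, plus strand. Bambi is ENSMUSG00000024232, chromosome 18, 3507871 to 3516404, plus strand, and Smad7 (ENSMUSG00000025880, chromosome 18, 75500374 to 75529006, plus strand) shares its chromosome. Smad6 is ENSMUSG00000036867, chromosome 9, 63860341 to 63929793, minus strand. All but Msx1, Smad6 and Smad7 overlap at least 1 annotated gene on the opposite strand, none of which has a name beyond a model number, and the use of strand in counting is not given in the sources used here.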

How the data were processed

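Single-cell RNA was measured in 2 hindlimb libraries. Both deposited tables give raw UMI counts, as whole numbers for each gene in each barcode. Cell Ranger 7.0.1 is named in the file headers and Cell Ranger 3.1.0, with Seurat 4 and mm39, in the submitters' processing notes, and it is unsettled which of the versions counted. The annotation release and whether strand or introns were used were not given in the sources used here. Of 56982 features 56236 matched GENCODE M39 on GRCm39, the source of coordinates and sequences.

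A barcode needed 1000 genes or more and no more than 10% of its UMIs from mitochondrial genes. This took out 2593 and 1502 barcodes of dual-enSERT-1 and dual-enSERT-2 for genes and 125 and 700 for mitochondrial UMIs. Scrublet (8% expected) called as doublets, which were left out, 1751 (9.84%) and 211 (3.16%). Each library was clustered by itself (Scanpy 1.11.5, Python 3.11.15, 2000 variable genes, 30 components, 15 neighbours, Leiden resolution 1) without the 9 genes, Bmp4, Shh, eGFP and mCherry, and a cluster was named from at least 3 markers. Clusters whose median UMI count was under 0.333 times their library's kept their names by the marker rule, and the result without them is an alternative added after the data were seen. Among them was a mesenchyme-like cluster of dual-enSERT-1 with 1446 cells and a median of 2967.5 UMIs. With doublets kept, a cluster of 1432 cells with a median of 2960.5 UMIs was left unnamed there.

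Counts were summed per cell group and library and divided by all UMIs of the group, giving CPM with 95% exact Poisson intervals. Ratios have exact conditional binomial intervals, and shares of cells refer to cells thinned to 5000 UMIs, which left out 1640 and 413 shallower cells (1415 and 338 of them mesenchyme-like). With 1 library per group there is no test. The 9 genes, the pathway and marker lists and the rules were chosen with earlier results of these data known. The genes named are the 9, the genes that group cells, pathway genes called, and the 2 genes most like each member, of which 1 for Smad7 is not reported here. The division of muscle by Myod1 or Myog was possible in 1 library only, and 11 of 13 planned cell groups had enough cells for the comparison of patterns. Scripts were tested on simulated data. Alternatives changed the cell filter, doublets, clustering, level, scaling, pseudocount, minimum, fold, thinning, detection, index and stratum.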

Additional observations from a re-analysis of the deposited data

Results flagged for a closer look

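For 5 results the 2 libraries had opposite signs beyond counting error, and in each the difference between the libraries was not tested. Msx2 in distal over proximal mesenchyme-like cells had a log2 fold change of 0.70 for dual-enSERT-1 and -0.28 for dual-enSERT-2, below 20 CPM on both sides. For an Lmx1b UMI against none in mesenchyme-like cells, Id1 had -0.21 for dual-enSERT-1 and 0.33 for dual-enSERT-2, Id3 had -0.23 for dual-enSERT-1 and 0.31 for dual-enSERT-2, and Smad6 had -0.12 for dual-enSERT-1 and 0.36 for dual-enSERT-2. Id1 in endothelial-like over mesenchyme-like cells had -0.39 for dual-enSERT-1 and 0.15 for dual-enSERT-2.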

How the results depend on the processing

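Under 20 alternative settings, 138 counts of members stayed within 1.5 times the reported one and 21 did not; of the values for single genes 1562 moved by less than their counting interval, 461 by more, and 2 changed sign. The count for Lmx1b was the same under every alternative run, and those for endothelium (4 to 6), muscle (3 to 6) and Fgf8 (3 to 4) stayed within 1.5 times the reported one. A log2 fold of 1 in place of 0.58 gave 2 in place of 5 for ectoderm, 1 in place of 2 for distal cells, 0 in place of 2 for Bmp4, for Grem1 and for the libraries, and 0 in place of 1 for Myod1 or Myog. The count of 2 for Bmp4 became 1 with the mean of each cell's CPM, a pseudocount of 5 CPM, thinning to 2000 UMIs, or within distal or anterior cells. For Grem1 it became 1 with doublets kept, with the mean of each cell's CPM, without thinning or within middle cells, and 5 with 2 UMIs required. For Myod1 or Myog it became 0 with doublets kept or without thinning, 3 with no minimum and 2 with 2 UMIs required. For anterior cells it became 1 in place of 3 within proximal cells, where Id2 in dual-enSERT-1 turned to -0.17, and Msx1 with Grem1 within middle cells of dual-enSERT-1 turned to 0.19; the cause was not tested. Leaving out clusters of low depth gave 4 in place of 5 for ectoderm and 5 in place of 4 for muscle, and moved no other count. Not run, for want of 20 cells in a group, were the index of -2 against 2 and 2 UMIs of the index genes, anterior against posterior within distal cells, and Grem1 and Lmx1b within anterior cells. No paired analysis was possible because each group holds 1 library and the labels give no replicate numbers. Depth limits Msx2 and Id4, which rest on few UMIs outside ectoderm and mesenchyme.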

Other observations

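The macrophage-like cells (61 of dual-enSERT-1, 56 of dual-enSERT-2) held Id2 at 90.5 CPM for dual-enSERT-1 and 102 CPM for dual-enSERT-2, with 28.6% and 24.0% of cells having an Id2 UMI at 5000 UMIs (49.2% and 35.7% unthinned) against 2.45% and 1.103% of erythroid-like cells. Id2 is known to take part in the development of myeloid and innate lymphoid cells. Id3 differed between the libraries there, at 31.5 CPM for dual-enSERT-1 and 110.4 CPM for dual-enSERT-2 (95% intervals 22.5 to 42.9 and 94.7 to 128), and with 1 library each this was not tested. The cells of the 2 libraries also differed in other markers. The gene leading the cluster of dual-enSERT-2 was Mpo, and the platelet lineage genes Pf4, Itga2b and Gp9 stood at 346, 3.94 and 0.787 CPM in dual-enSERT-1 and at 1366, 38.7 and 29.3 CPM in dual-enSERT-2. The mesenchyme genes Prrx1 and Pitx1 stood at 88.2 and 29.1 CPM in dual-enSERT-1 and at 135 and 68.0 CPM in dual-enSERT-2, and the part of these in the Id3 level was not tested.

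Cells that were neither distal nor proximal by Hox13 and Meis genes stood between the other 2 for Msx1, at 185 and 230.1 CPM in dual-enSERT-1 and dual-enSERT-2, and for Bambi, at 34.5 and 34.3 CPM. The highest Msx1 level among the mesenchymal groups with at least 20 cells was that of 60 cells of dual-enSERT-1 that were anterior and distal, at 587 CPM (95% interval 541 to 636).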
